A study of Homo sapiens with 9 samples.

Results

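RNA of A549 cells, a human lung cancer cell line, was compared between 3 libraries of cells transfected with siCyclin K#2, the second of the study's siRNAs against Cyclin K, and 3 libraries of cells transfected with a scrambled siRNA. These 6 libraries are part of a set of 9, and the other 3 came from cells given siCyclin K#1, which targets the same mRNA. All cells were harvested 48 h after transfection, no further allele or agent is named for any group, and the siRNAs act only while they last, so the groups show a transient loss of mRNA in 1 cell line. The series describes its samples as independent, without saying whether they were separate cultures, so that p-values measure the spread between these libraries, which may be technical. Values are FPKM, or fragments counted relative to the length of the gene and the depth of its library. Recovered from these values, the depth of the scrambled libraries came to 33767961, 31847926 and 32437400 reads, and that of the siCyclin K#2 libraries to 32145727, 33211928 and 31862455 reads. Of 56252 rows in each file, 31127 carry a reference gene, which gave 31080 genes once rows of the same gene were summed. The test covered the 21048 genes that reached 0.1 FPKM in 3 or more of the 9 libraries. In the text, a gene rose or fell when its adjusted p from limma was under 0.05, and was called when its fold change was over 3 with an unadjusted p under 0.01.

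The epithelial keratin genes KRT8 and KRT18 were expressed in every library, KRT8 with 65.4, 49.7 and 50.7 FPKM in the scrambled and 101, 93.7 and 97.4 in the siCyclin K#2 libraries. KRT18 had 83.2 ± 2.15 (SD, n = 3) and 90.2 ± 0.973 (SD, n = 3) FPKM. KRT8 rose (log2 fold change 0.83), while KRT18 had a log2 fold change of 0.12 (limma adjusted p = 0.056). Of 6 listed epithelial markers 3 were tested, KRT8, KRT18 and CDH1, and the other listed markers did not enter the test. The alveolar surfactant gene SFTPC, the endothelial gene PECAM1, the blood cell gene PTPRC and the fibroblast gene DCN were at or near 0 FPKM in all 6 libraries, with the highest of these values, 0.0774 FPKM, for SFTPC in a scrambled library. Most listed markers of these types were not among the tested genes. Of 6 alveolar type 2 markers 2 were tested and ABCA3, a lipid transporter, rose (0.63), and the list summed to 6.81, 5.96 and 6.46 FPKM in the scrambled and 9.81, 9.12 and 11.0 FPKM in the siCyclin K#2 libraries. Of 5 fibroblast markers 2 were tested and PDGFRA, a growth factor receptor, rose (0.26), with sums of 3.80, 4.19 and 3.76 against 4.41, 4.74 and 4.56 FPKM. The endothelial and blood cell lists had 1 tested marker each, which did not pass, and sums of up to 0.275 and 1.02 FPKM. The part of such cells in the results was not tested.

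Cyclin K is the regulatory partner of the kinases CDK12 and CDK13, which phosphorylate the C-terminal domain of the largest subunit of RNA polymerase II. The complex is known for sustaining elongation and for suppressing the premature use of intronic polyadenylation sites, and genes of the DNA damage response are the best known to depend on it. CCNK, which encodes Cyclin K, lies on the plus strand at chr14:99481169-99535044 of GRCh38. Its mRNA was at 6.9, 7.06 and 7.1 FPKM in the scrambled libraries and at 0.809, 0.92 and 0.802 FPKM in the siCyclin K#2 libraries. The groups did not overlap, and 12% of the scrambled mean was left (log2 fold change -2.92 ± 0.10 SE, limma adjusted p = 2.3e-07). In RNA from bulk cells, fewer cells with an mRNA and less of that mRNA per cell cannot be told apart. With 3 libraries against 3, no exact test of a single gene can go below p = 0.1, so the p-values given here come from the fit over all genes.

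The mRNA of the kinase partners did not fall with Cyclin K. CDK12 was at 8.12, 8.27 and 7.32 FPKM with scrambled siRNA and at 16.4, 20.7 and 18.3 FPKM with siCyclin K#2, so that every siCyclin K#2 library was higher (1.21 ± 0.08 SE, limma adjusted p = 8.3e-06). CDK13 rose less, from 2.66 ± 0.217 (SD, n = 3) to 3.22 ± 0.113 (SD, n = 3) FPKM (0.27, limma adjusted p = 0.026). Its adjusted p was no longer under 0.05 without scrambled replicate 1 or 2, or without siCyclin K#2 replicate 2 or 3 (0.26, 0.22, 0.27 and 0.24), and under both other scalings. CDK9, the kinase of the elongation factor P-TEFb, rose (0.85), and CCNT1, which encodes its partner Cyclin T1, fell (-0.30). CDK19, a kinase of the Mediator complex, rose (1.2). HEXIM1, which encodes an inhibitor of P-TEFb, was at 27.6, 68.1 and 26.9 FPKM in the siCyclin K#2 libraries, with 1 library far above the other 2, against 26.4, 28.8 and 27 FPKM with scrambled siRNA (limma adjusted p = 0.33). Of 19 tested transcriptional cyclins and CDKs, 7 rose and 4 fell.

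Across all genes, 228 were called higher, or 1.08% of those tested, and 181 were called lower, or 0.86%, so that 409 genes (1.94%) passed the fold change of 3. All of the 409 also had an adjusted p under 0.05, which follows here from the unadjusted threshold of 0.01 and adds no support. The groups did not overlap in all 228 genes called higher and in 179 of the 181 called lower. With a pseudocount of 1 FPKM in place of 0.1, 70 genes were called, all of them among the 409, and with the test refitted on genes averaging 1 FPKM or more over all 9 libraries, 139 were higher and 47 lower. By the adjusted p alone, 4161 genes rose (19.8%) and 3192 fell (15.2%), 7353 in all (34.9%). Under median-ratio rescaling the splits were even, with 3685 rises and 3688 falls, and with 205 genes called higher and 209 lower. Most of the 7353 changes were small: 5714 had a log2 fold change between -1 and 1, and the median over all tested genes was 0.01. Genes at higher levels passed more often, and among 9091 protein-coding genes averaging 1 FPKM or more it was 33.0% higher and 22.6% lower. The gene lists below are described beside these shares, which stand for the whole table, and no list was tested as a set.

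**Figure D1:**
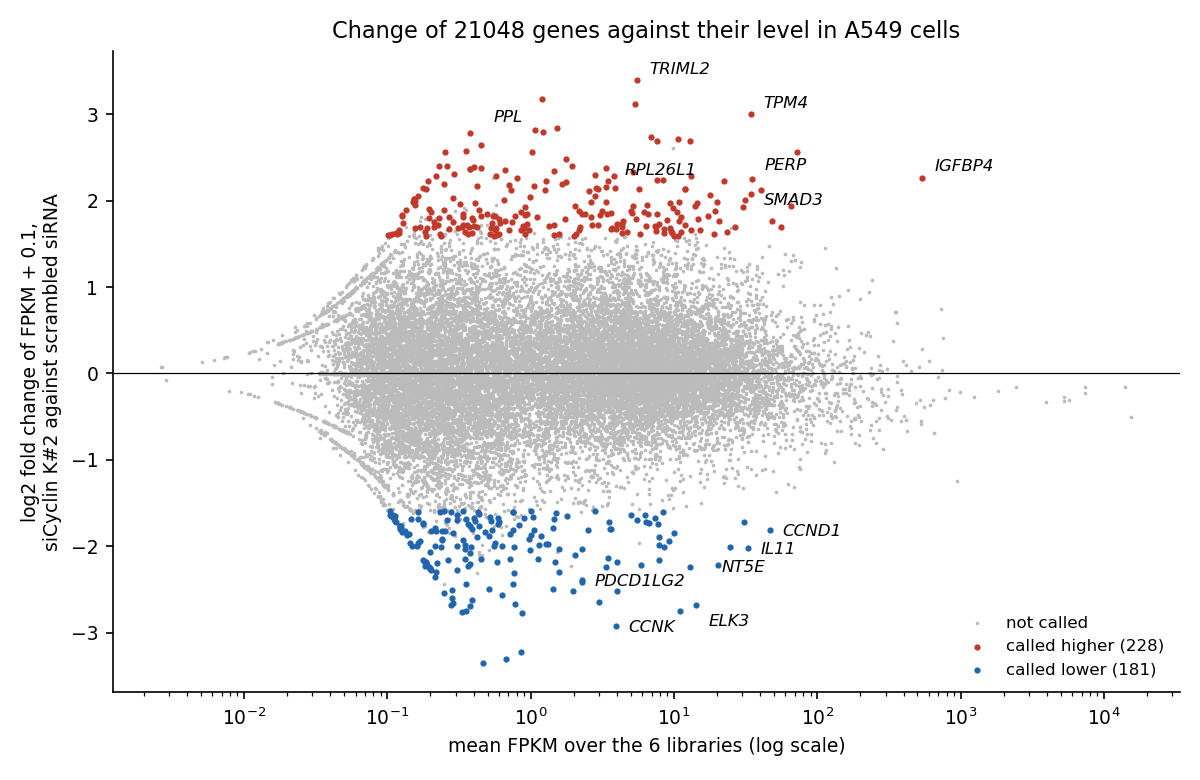
Log2 fold change of FPKM + 0.1 with siCyclin K#2 against scrambled siRNA (y axis) plotted against the mean FPKM over the 6 libraries on a log scale (x axis), 1 point for each of 21048 tested genes, with called genes in colour. Genes called lower are mostly at low levels: 123 of the 228 higher and 56 of the 181 lower average 1 FPKM or more over these 6 libraries.

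TRIML2, a target gene of p53, showed the greatest rise of any called gene averaging 1 FPKM or more. It was at 0.893, 0.937 and 0.788 FPKM with scrambled siRNA and at 10.4, 9.96 and 10 FPKM with siCyclin K#2 (3.39 ± 0.07 SE, limma adjusted p = 3.2e-08). TPM4, which encodes a tropomyosin of the actin cytoskeleton, was at 6.97, 7.4 and 7.84 FPKM and at 75, 43.7 and 65 FPKM. All TPM4 values with siCyclin K#2 were above the scrambled values, a condition for the 12 greatest rises, but they spread widely among themselves (3.0 ± 0.26 SE). PPL, which encodes the plakin periplakin, rose from 0.237 ± 0.0356 (SD, n = 3) to 2.22 ± 0.155 (SD, n = 3) FPKM. DIO2, the deiodinase that activates thyroid hormone, KIF1C, a kinesin motor, PREX1, an exchange factor for Rac, and B4GALT1, a galactosyltransferase, had log2 fold changes of 2.81, 2.71, 2.69 and 2.57. B4GALT1 had the smallest standard error of these (0.03), with 20.9, 20.7 and 20.9 FPKM in the scrambled and 126, 121 and 124 FPKM in the siCyclin K#2 libraries. The other genes among the 12 greatest rises were C11orf86, the noncoding genes AP000864.1, AL161431.1 and AC006058.3, and 1 feature that joins RFLNA and ZNF664 and cannot be split between them, with log2 fold changes from 2.69 to 3.17.

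Behind CCNK itself, the falls were led by short or noncoding features and by the protein-coding genes ELK3 and PDCD1LG2. ELK3, an ETS transcription factor, was at 28.8, 17.7 and 27.6 FPKM with scrambled siRNA and at 5.22, 3.31 and 2.91 FPKM with siCyclin K#2 (-2.68 ± 0.24 SE, limma adjusted p = 3.9e-05). PDCD1LG2, which encodes the PD-1 ligand PD-L2, was at 4.17, 3.97 and 3.47 FPKM and at 0.513, 0.764 and 0.717 FPKM. Neither gene overlapped between the groups. The processed pseudogene AC009299.1, the long noncoding gene AC092118.1 and a feature that joins AC025171.4 and AC025171.2 fell by 2.64, 2.49 and 2.42 on the log2 scale. SNORA2B, a small nucleolar RNA, and ENSG00000207383, 1 of many Y RNA loci named RF00019 (chr2:112579484-112579584, minus strand, GRCh38), span only 0.137 and 0.101 kb, and were at 0.595 ± 0.452 and 0.511 ± 0.358 (SD, n = 3 each) FPKM with siCyclin K#2, a wide spread for such low means. Copies of Y RNA genes are alike in sequence, so the value of this locus is uncertain. The 5.8S ribosomal RNA features RNA5-8SN3 and RNA5-8S5 belong to repeated copies that share reads and are uncertain. CR392039.3 was at 5.44, 0.441 and 6.06 FPKM in the siCyclin K#2 libraries and missed the adjusted p without scrambled replicate 1 or 3 (log2 fold changes of -2.72 and -2.52). Its log2 fold change was -1.60 without siCyclin K#2 replicate 2 and -3.35 without siCyclin K#2 replicate 3.

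In units of FPKM rather than fold, IGFBP4, which binds insulin-like growth factors, rose most. It was at 179, 191 and 188 FPKM with scrambled siRNA and at 891, 894 and 899 FPKM with siCyclin K#2 (2.26, limma adjusted p = 2e-09). The means differed by 4.8 times, with little spread within either group. ALDH1A1, a retinaldehyde dehydrogenase, rose from 550 ± 20.4 to 921 ± 58.9 FPKM (SD, n = 3 each). TMSB10, an actin-binding thymosin, MT2A, a metallothionein, and HSP90AA1, the inducible HSP90, followed. MT2A was at 157, 150 and 153 FPKM and at 269, 389 and 328 FPKM, spread more widely with siCyclin K#2.

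**Figure D2:**
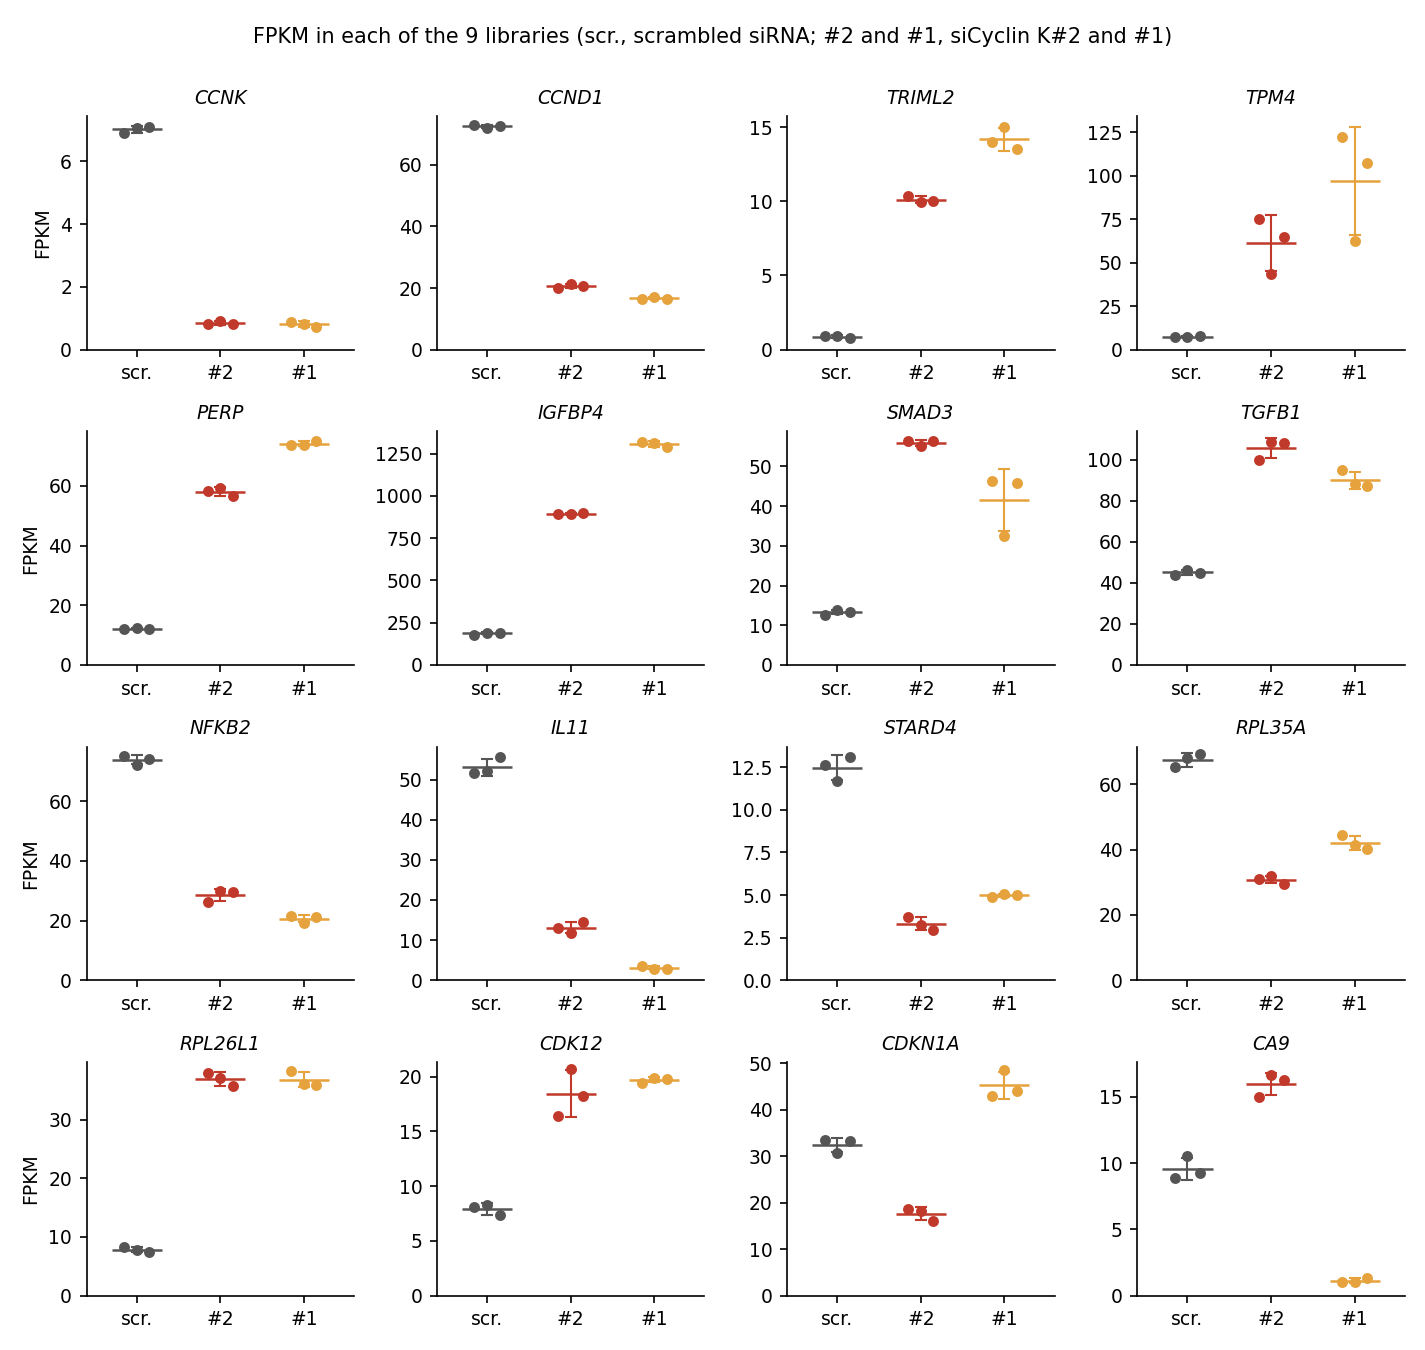
FPKM (y axis, from 0) of 16 genes in each of the 9 libraries (points), with the mean (line) and SD (bar) of the 3 libraries for scrambled siRNA (scr.), siCyclin K#2 (#2) and siCyclin K#1 (#1). In all 16 genes, which were picked for display, the 3 siCyclin K#2 libraries lie fully above or below the 3 scrambled libraries. CDKN1A and CA9 lie on opposite sides of the scrambled values with the 2 siRNAs.

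CCND1, which encodes Cyclin D1, the driver of G1 progression through CDK4 and CDK6, was the member of the G1 list that fell most. It was at 73.1, 72 and 72.6 FPKM with scrambled siRNA and at 20.04, 21.4 and 20.6 FPKM with siCyclin K#2 (-1.81 ± 0.03 SE, limma adjusted p = 2.1e-08). The paralogue CCND3 rose (0.59). The CDK inhibitor gene CDKN1B, which encodes p27, was at 39, 41.3 and 39.9 FPKM and at 17.5, 15.3 and 15.9 FPKM. Its relative CDKN1A, which encodes p21, was at 33.4, 30.7 and 33.2 FPKM and at 18.7, 18.2 and 16.1 FPKM. Neither inhibitor overlapped between the groups, and both fell (-1.3 and -0.88). E2F1, the activator of S phase genes, rose (1.0) and its relative E2F5 fell (-1.06). Of 24 tested genes of the G1 list, 8 rose and 10 fell.

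Genes of mitosis rose more often than they fell. Of 57 tested mitosis genes 27 rose (47.4%) and 8 fell, with a median log2 fold change of 0.16. CENPF, a kinetochore protein, was at 21.8, 23.3 and 22.8 FPKM with scrambled siRNA and at 54.7, 53.3 and 53.3 FPKM with siCyclin K#2, and BIRC5, which encodes survivin, and MYBL2 rose with log2 fold changes of 1.15 and 1.01. MKI67, the gene of the proliferation marker Ki-67, rose by less (0.38). The mitotic cyclin CCNB1 and the kinases AURKB and CDK1 fell instead, with log2 fold changes of -0.37, -0.23 and -0.18. CKS2, CDC20 and CDCA8, chosen after their values were seen, fell further (-0.81, -0.77 and -0.76). Of 53 replication genes 21 rose (39.6%) and 14 fell (26.4%), shares close to the 33.0% and 22.6% of protein-coding genes averaging 1 FPKM or more. CDC45 and MCM2, both parts of the replicative helicase, and PCNA, the sliding clamp of the polymerases, rose (0.75, 0.56 and 0.37), and ORC3 and RFC5 fell (-0.75 and -0.56). The replication list had a median of 0.05, which became -0.01 under median-ratio rescaling and under quantile normalization.

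The tested genes of the DNA damage response did not move as 1 group. Of 50 tested genes of homologous recombination, the Fanconi pathway and end joining, 13 rose (26.0%) and 12 fell (24.0%), and 0 were called. BRCA1 and BRCA2 are not among these 50 genes, so nothing is said of them here. ATR, the kinase of the replication checkpoint, was at 5.07, 5.11 and 4.9 FPKM with scrambled siRNA and at 2.9, 2.86 and 2.89 FPKM with siCyclin K#2 (-0.78, limma adjusted p = 1.1e-05). XRCC3 and FANCB fell as well (-0.68 and -0.59), whereas XRCC4, an end joining factor, and RAD54L rose (1.1 and 0.57). FANCD2 and FANCI had log2 fold changes that rounded to 0 (limma adjusted p = 0.97 and 0.99), with standard errors of 0.07 and 0.05. Among 41 excision and mismatch repair genes 11 rose and 14 fell. XPC, which recognizes damage for nucleotide excision repair, rose (1.37), and ERCC1, of the incising nuclease, fell (-0.87).

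Of 37 tested p53 target genes 15 rose (40.5%) and 8 fell (21.6%). TRIML2, PERP and TP53TG1 were called, the last one (1.68) picked out after its values were seen. PERP, a membrane protein gene, was measured with 12.1, 12.3 and 11.9 FPKM with scrambled siRNA and 58.4, 59.4 and 56.5 FPKM with siCyclin K#2 (2.25 ± 0.03 SE). FDXR, BTG2 and GDF15 rose (1.37, 1.3 and 0.78), and MDM2, the ubiquitin ligase of p53, rose by 0.28 on the log2 scale. CDKN1A, a classical member of the same list, fell. In the BCL2 family, MCL1, which protects cells from apoptosis, fell from 38 ± 1.56 to 17.3 ± 0.577 FPKM (SD, n = 3 each), and BCL2L1, whose main product BCL-XL also protects, rose from 29.6 ± 1.47 to 61.7 ± 0.451 FPKM. The BH3-only genes PMAIP1 and BBC3 fell and rose (-0.87 and 1.04). The family of 17 had 3 rises and 6 falls.

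The components of the Wnt pathway were taken in order from ligand to target. Of 17 tested ligands and secreted inhibitors 8 rose and 4 fell. WNT9A was at 0.172, 0.198 and 0.396 FPKM with scrambled siRNA and at 0.83, 1.02 and 1 FPKM with siCyclin K#2, low in every library and without overlap. WNT7B and the inhibitor SFRP4 rose (1.26 and 1.48), and WNT10B and the inhibitor SFRP1 fell (-0.95 and -0.92). The G protein subunit gene GNG7 was at 0.0195, 0.062 and 0.0338 FPKM and at 0.334, 0.357 and 0.33 FPKM, barely detected with scrambled siRNA, and GNG3 fell (-1.09). Among 20 receptors and co-receptors 6 rose, with LRP6 at 0.93, and 8 fell, with FZD8 at -1.23. CTNNB1, which encodes β-catenin, was at 23.2, 24.8 and 23.2 FPKM and at 22.4, 22 and 23.6 FPKM, with overlapping groups (-0.07 ± 0.05 SE, limma adjusted p = 0.33). Of 18 TCF factors, TLE corepressors and co-activators 10 rose (55.6%) and 0 fell. AES, a short corepressor of the TLE family, was at 5.97, 5.41 and 5.77 FPKM and at 20.9, 23.9 and 21.7 FPKM, and TCF7L1 rose from 0.386 ± 0.033 to 1.34 ± 0.147 FPKM (SD, n = 3 each). TCF7L2 had a log2 fold change of -0.18 (limma adjusted p = 0.051). Of 18 β-catenin target genes 6 rose, JUN and VEGFA among them (0.99 and 0.97), and 6 fell, led by CCND1. MYC, another target, was at 1.63, 16.7 and 1.76 FPKM with scrambled siRNA and at 2.79, 20.1 and 2.41 FPKM with siCyclin K#2. In each group replicate 2 was far above the other 2 libraries, and no difference could be read from these values (standard error 1.24, limma adjusted p = 0.81).

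**Figure D3:**
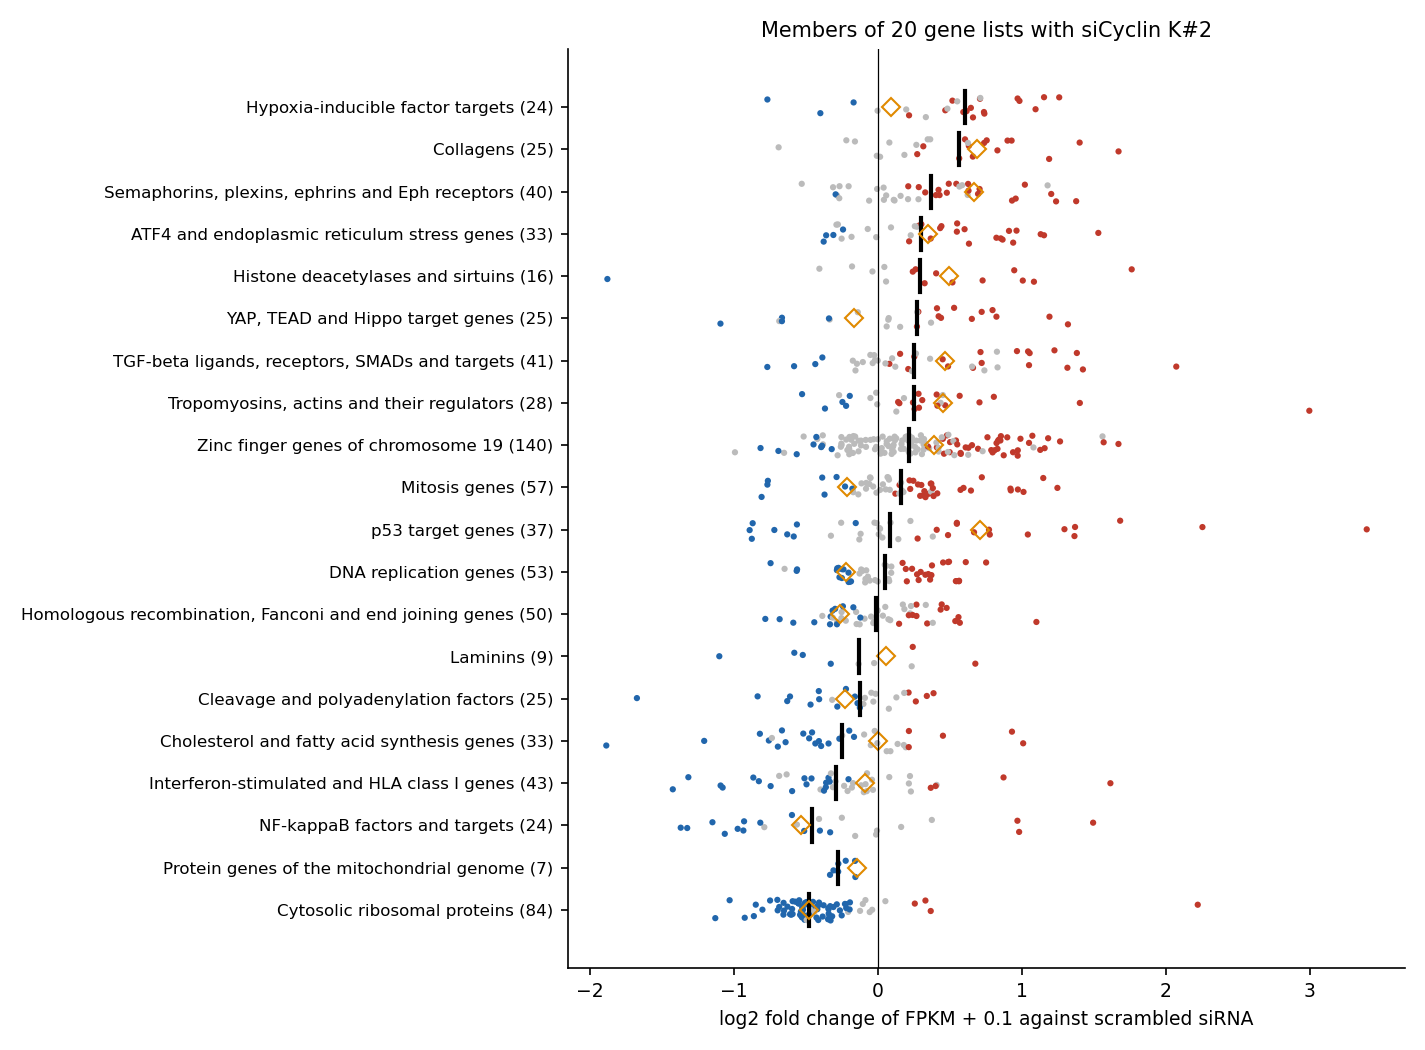
Log2 fold change with siCyclin K#2 against scrambled siRNA (x axis) of each tested member (point) of 20 gene lists, with the number of members in brackets. Red and blue points have an adjusted p under 0.05 and grey points do not, the black bar is the list's median, and the orange diamond is its median with siCyclin K#1. The medians run from -0.48 for the cytosolic ribosomal proteins to 0.60 for the hypoxia-inducible factor targets.

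Genes of NF-κB signaling fell more often than they rose. Of 24 tested NF-κB factors and targets 12 fell and 3 rose (12.5%), with a median log2 fold change of -0.46. NFKB2, which encodes the p100 precursor of the non-canonical pathway, was at 75.2, 72.2 and 74.2 FPKM with scrambled siRNA and at 26.1, 30 and 29.7 FPKM with siCyclin K#2 (-1.37 ± 0.06 SE, limma adjusted p = 9e-07). The feedback inhibitors NFKBIE, TNFAIP3 and NFKBIA fell (-1.32, -1.15 and -1.06), and the inhibitor NFKBIB rose (1.49). CXCL5, a chemokine for neutrophils, was at 1387, 1266 and 1315 FPKM and at 483, 637 and 559 FPKM, without overlap. IL11, a cytokine that signals through gp130, was at 51.5, 52.2 and 55.5 FPKM and at 13.1, 11.7 and 14.5 FPKM (-2.02). IL6ST, which encodes gp130, fell too (-1.09), while STAT3, its downstream factor, and IL6R rose (0.72 and 0.61). CXCL8 had a log2 fold change of -0.01 and IL6 one of 0.07, both at low levels.

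Of 43 interferon-stimulated and HLA class I genes 17 fell (39.5%) and 4 rose (9.30%). SAMD9L, IFIH1, a sensor of double-stranded RNA, and ISG15 fell (-1.32, -0.83 and -0.60), and the factor IRF7 rose (0.87). HERC5, a ligase that attaches ISG15 to proteins, went against these falls and was the only called member. It was at 0.162, 0.0988 and 0.129 FPKM with scrambled siRNA and at 0.529, 0.556 and 0.731 FPKM with siCyclin K#2 (1.61), and was chosen after its values were seen. PSMB9, a subunit of the immunoproteasome, fell in a feature it shares with PSMB8-AS1 (-1.09). Among immune checkpoint ligands and genes of the adenosine pathway, PDCD1LG2 fell as given above. NT5E, which encodes CD73, the enzyme that makes adenosine outside the cell, was at 40.2, 38.6 and 39.3 FPKM and at 7.11, 12.2 and 10.5 FPKM (-2.01, limma adjusted p = 3e-05). CD274, which encodes PD-L1, had a log2 fold change of 0.73 with a standard error of 0.52 (limma adjusted p = 0.33).

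Genes of TGF-β signaling and of collagens rose more often than they fell. Of 41 tested ligands, receptors, SMADs and targets of TGF-β 18 rose (43.9%) and 4 fell (9.76%). SMAD3, which carries the signal from the receptor to the nucleus, was at 12.7, 13.7 and 13.3 FPKM with scrambled siRNA and at 56.4, 55.1 and 56.3 FPKM with siCyclin K#2 (2.07 ± 0.12 SE, limma adjusted p = 3.6e-06). The ligand TGFB1 rose from 45.1 ± 1.28 to 106 ± 4.82 FPKM (SD, n = 3 each), the activin subunit INHBB and the latency protein LTBP1 rose (1.38 and 1.42), and the inhibitor SMAD7 fell (-0.58). PLAU, which encodes a plasminogen activator, fell (-0.63), and of the 8 tested genes of the plasminogen activator system 5 fell and 2 rose. Of 25 collagen genes 14 rose (56.0%) and 0 fell, with a median of 0.56. COL5A1 rose from 4 ± 0.216 to 13 ± 0.333 FPKM and COL4A1, of basement membranes, from 38.5 ± 0.86 to 88 ± 3.2 FPKM (SD, n = 3 each). The laminins, the other main proteins of basement membranes, went the other way more often, with 4 of 9 lower and 2 higher. Of 12 matrix metalloproteinases and their inhibitors, 4 fell and 2 rose.

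Of 28 tested tropomyosins, actins and their regulators 15 rose and 5 fell, and besides TPM4 these included the nonmuscle myosin MYH9 (0.81) and ACTB (0.71), a common reference gene. VCL, which encodes vinculin, fell (-0.53). Among 25 genes of the YAP and TEAD pathway 12 rose, led by TEAD4 and AMOTL1 (1.32 and 1.19), and 4 fell. The standard YAP targets CTGF and ANKRD1 had log2 fold changes of 0.06 and 0.27 (limma adjusted p = 0.75 and 0.19), and CYR61 rose (0.44). Of 40 semaphorins, plexins, ephrins and Eph receptors, the guidance molecules of cell contact, 19 rose (47.5%) and 1 fell, with SEMA3A and EFNA1 at 1.02 and 1.24. Among cadherins, CDH2 (N-cadherin) rose (0.81) and the protocadherin PCDH9 was called, at 0.564, 0.537 and 0.538 FPKM and 3.47, 3.11 and 3.37 FPKM. CDH1 (E-cadherin) had a log2 fold change of 0.02 (limma adjusted p = 0.96), and VIM, the vimentin gene, fell (-0.38). In the EGF receptor family, the ligands AREG, TGFA and EREG rose (1.62, 0.87 and 0.72), and EGFR and the ligand HBEGF fell (-0.29 and -0.73). Of 30 RAS genes and feedback regulators of MAPK signaling 7 rose and 7 fell. SPRY4 and DUSP6 fell (-1.59 and -1.03), and the phosphatases DUSP8 and DUSP1 rose (1.40 and 0.81), DUSP8 at under 1 FPKM in each library and chosen after its values were seen.

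Over all tested members, target genes of the hypoxia-inducible factors had the highest median of the lists, 0.60. Of these 24 genes 15 rose (62.5%) and 3 fell (12.5%). Among members averaging 1 FPKM or more, the collagens (0.65) and the cytochrome P450 and glucuronosyltransferase genes (0.82) had higher medians. P4HA2, a collagen prolyl hydroxylase, was at 4.13, 4.97 and 4.93 FPKM with scrambled siRNA and at 10.8, 11.6 and 11.5 FPKM with siCyclin K#2. DDIT4, an inhibitor of mTORC1 that also belongs to the stress list, was at 29.9, 34.8 and 33.6 FPKM and at 70.2, 72.3 and 76.1 FPKM. Neither gene overlapped between the groups, and LOX, VEGFA, NDRG1 and CA9, a carbonic anhydrase of the cell surface, rose too (1.1, 0.97, 0.98 and 0.74). The feature that joins HIF1A with SNAPC1 fell by 0.17 on the log2 scale, and its adjusted p was no longer under 0.05 without scrambled replicate 1 or 3 (-0.15 each) or siCyclin K#2 replicate 2 or 3 (-0.15 and -0.17). The collagen-modifying enzyme PLOD2 fell (-0.40), and the mitophagy gene BNIP3 had a log2 fold change of 0.00 (limma adjusted p = 0.98). These factors bind the core letters ACGTG, and the 250 bases before their starts were searched for ACGTG on both strands (CACGT on the gene's own strand is the same match), in the RefSeq promoters of GRCh38.p14. Of the 20 members with a promoter, 10 held the letters, against 5101 of 27305 promoters (18.7%). It was present for 6 of the 12 members that rose and 1 of the 3 that fell, so that the letters occurred in both directions. A 30-base window is shown for 4 members that rose and for PLOD2, which fell, read 5′ to 3′ on the strand of the gene, with the match in capitals.
DDIT4, chr10:72273787-72273816, plus strand: agaacgttgcttACGTGcgcccggagtcca
CA9, chr9:35673898-35673927, plus strand: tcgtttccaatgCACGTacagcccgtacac
LOX, chr5:122078427-122078456, minus strand: gctccctgtgcaACGTGtctggggggagga
P4HA1, chr10:73096935-73096964, minus strand: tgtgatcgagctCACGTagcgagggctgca
PLOD2, chr3:146161313-146161342, minus strand: caaacagtccagACGTGgggcccaggaggg
The matches shown start 125 bases before the start of DDIT4, 18 before that of CA9, 185 before that of LOX, 86 before that of P4HA1 and 146 before that of PLOD2. LOX had further matches 116, 98 and 42 bases before its start, and PLOD2 had a further match at 200. A match of 5 letters is a description of the sequence and does not show that a factor was bound.

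Of 33 tested genes of cholesterol and fatty acid synthesis 17 fell (51.5%) and 5 rose (15.2%). STARD4, which carries cholesterol between membranes, was at 12.6, 11.7 and 13.1 FPKM with scrambled siRNA and at 3.73, 3.24 and 2.97 FPKM with siCyclin K#2 (-1.89, limma adjusted p = 8e-07). The sterol enzymes MSMO1 and HMGCS1 fell (-1.21 and -0.82), as did the fatty acid synthase FASN (-0.46). The core letters of the sterol response element, TCACNCCAC on either strand, were in the 250 bases before the start of 1 of the 27 members with a RefSeq promoter, against 239 of 27305 promoters (0.875%), and that member is among the 17 that fell.

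Genes of the ATF4 and endoplasmic reticulum stress response rose in 19 of 33 cases (57.6%) and fell in 4. HSPA5, the chaperone BiP, was at 146, 131 and 146 FPKM and at 250, 256 and 261 FPKM, and TRIB3, SLC7A5 and the chaperone CALR rose (1.53, 0.96 and 0.94). ATF4 mRNA itself fell (-0.38). Of 14 aldehyde dehydrogenases 8 rose, with ALDH3A1 at 57, 63.6 and 59.7 FPKM and 171, 161 and 163 FPKM, and 3 fell. Of 21 cytochrome P450 and glucuronosyltransferase genes 7 rose and 5 fell. CYP24A1, which breaks down vitamin D, was called higher (1.92), as was a feature that joins CYP1B1 with RMDN2-AS1 (2.07), and CYP4F11, chosen after its values were seen, was called lower (-1.99). NRF2 target genes moved both ways, with 10 of 29 higher, NQO1 at 0.48 and HMOX1 at 0.77, and 8 lower, a feature of AKR1B10 and AKR1B15 at -0.81. Of 21 glycolytic enzymes 8 rose, PFKL at 1.91 and PFKFB3 at 1.05, and 7 fell. GAPDH, which is often used as a reference gene, fell slightly (-0.16), and this fall was 0.00 under quantile normalization.

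The cytosolic ribosomal proteins fell almost throughout. Of 84 tested members 70 fell (83.3%) and 4 rose (4.76%), with a median log2 fold change of -0.48, and their summed level was 14540, 14550 and 14120 FPKM in the scrambled libraries against 10530, 10620 and 10430 FPKM in the siCyclin K#2 libraries. RPL35A was at 65.1, 67.9 and 69.2 FPKM and at 30.9, 31.8 and 29.6 FPKM (-1.13 ± 0.05 SE, limma adjusted p = 6.3e-07). RPS27 fell as well (-1.03). RPL26L1, the paralogue of RPL26, was the only called member and rose, from 8.29, 7.77 and 7.47 FPKM to 38, 37.1 and 35.7 FPKM. Many ribosomal protein genes have near-identical pseudogenes, so reads may be split between copies, and 24 of the 84 lie in features that join more than 1 gene. The median stayed below 0 under median-ratio rescaling (-0.53) and quantile normalization (-0.41). The host genes of small nucleolar RNAs SNHG5 and GAS5, which share with ribosomal protein genes a 5′ terminal oligopyrimidine tract, fell too (-0.90 and -0.88).

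In units of FPKM, MT-RNR2, the large ribosomal RNA of mitochondria, fell most, from 18200 ± 336 to 12840 ± 132 (SD, n = 3 each), followed by MT-CO1, MT-ND1, FTL, the ferritin light chain, and a feature of MT-CO3, MT-ATP8 and MT-ATP6. The 7 features with protein genes of the mitochondrial genome all fell, with log2 fold changes from -0.33 to -0.16. Under quantile normalization their median was 0.04 and 2 rose, and FTL had a log2 fold change of -0.04, so the direction of these very abundant RNAs depends on how libraries are scaled. Nuclear-encoded genes of the respiratory chain fell in 29 of 79 cases (36.7%) and rose in 16 (20.3%). NDUFA4 was at 31.3, 33.1 and 31.7 FPKM and at 13.8, 14.4 and 13.2 FPKM (-1.21). Mitochondrial ribosomal proteins had 12 rises and 19 falls among 74, with a median of -0.02. Proteasome subunits had 11 rises and 16 falls among 45, with PSMC3 at 1.16 and PSMB7 at -0.67.

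In the machinery of transcription and RNA processing, the factors of cleavage and polyadenylation stood on the lower side, with 12 of 25 lower (48.0%) and 4 higher (16.0%). RPRD1A, which binds the C-terminal domain of RNA polymerase II, was at 10.8, 11.6 and 11.6 FPKM with scrambled siRNA and at 3.57, 3.37 and 3.5 FPKM with siCyclin K#2 (-1.67, limma adjusted p = 2.5e-06). Its relative RPRD1B and the cleavage stimulation factor gene CSTF3 fell (-0.84 and -0.63). Of 39 RNA polymerase II subunits and elongation factors 14 rose and 10 fell. POLR2D and the negative elongation factor NELFB rose (1.41 and 1.22), and the subunit POLR2G and the largest subunit POLR2A fell (-0.85 and -0.13). POLR2L fell most (-1.32), but missed the adjusted p without scrambled replicate 2 or 3 (-1.14 and -1.13). The 29 Mediator subunits were split evenly, with 6 on either side. Among 23 features with hnRNP gene names, some of them pseudogenes, HNRNPM rose most (1.14). Among 12 SR splicing factors 4 fell, SRSF1 most (-0.47). DROSHA, the nuclease that starts microRNA maturation, rose from 4.07 ± 0.302 to 10.3 ± 0.325 FPKM (SD, n = 3 each), and its partner DGCR8 fell (-0.66).

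Of 16 histone deacetylases and sirtuins 10 rose (62.5%) and 1 fell. HDAC1 was at 20.8, 20.4 and 20.5 FPKM and at 44.4, 41.9 and 44.9 FPKM (1.08), HDAC5 passed the fold change of 3 (1.76), and SIRT4, a mitochondrial sirtuin, was called lower (-1.88). Of 140 zinc finger genes of chromosome 19, a clustered family of mostly repressive DNA-binding proteins, 39 rose (27.9%) and 8 fell (5.71%), and their summed level was 335.5, 333.0 and 340.9 FPKM with scrambled siRNA against 394.2, 387.7 and 398.7 FPKM with siCyclin K#2. ZNF227 rose most (1.67). Among 57 clustered histone genes 4 rose and 6 fell, and the linker histone gene HIST1H1C was called lower, at 15.4, 14.3 and 17.5 FPKM and 4.65, 3.61 and 4.69 FPKM.

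Among long noncoding RNAs, of 273 tested LINC-named RNAs 40 rose (14.7%) and 22 fell (8.06%), with LINC00857 at 0.59, 1.02 and 1.09 FPKM and 4.36, 4.8 and 4.94 FPKM. Of the 53 LINC-named RNAs averaging 1 FPKM or more 14 rose and 14 fell, with a median log2 fold change of -0.12. Of 565 antisense RNAs named after their sense gene (names ending in AS and a digit) 60 rose (10.6%) and 45 fell (7.96%), whereas of all 2187 tested genes annotated as antisense 138 rose (6.31%) and 163 fell (7.45%). VCAN-AS1 rose from 1.17 ± 0.0159 to 5.53 ± 0.374 FPKM (SD, n = 3 each), and CD44-AS1 fell (-2.03). The strand setting of the counting is not given in the sources used here, so reads of an antisense RNA and of its sense gene may not be told apart. Of 42 tested abundant nuclear RNAs and host genes of small RNAs 10 fell (23.8%) and 3 rose (7.14%), with a median log2 fold change of -0.28, and 23 of them lie in features that join more than 1 gene. SNHG14, a host gene of small nucleolar RNAs, fell (-1.18), as did SNHG5 and GAS5, and NORAD, an abundant RNA that binds Pumilio proteins, rose (0.61). MALAT1 was at 10.2, 2.86 and 7.94 FPKM and at 18.9, 33.7 and 10.9 FPKM, with groups that did not overlap but spread widely within each (limma adjusted p = 0.2).

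The direction of change moved with the span of the gene in the genome. Among the 9091 protein-coding genes averaging 1 FPKM or more, genes spanning up to 10 kb rose in 20.2% and fell in 36.5% of 1594 cases, with a median log2 fold change of -0.14. For genes spanning over 250 kb the shares were 55.6% and 8.93%, with a median of 0.35. The classes from 10 to 100 kb lay between them, and in the classes from 100 to 250 kb and over 250 kb 0 genes were called lower at a fold change of 3, although 187 and 35 fell by the adjusted p. Exon number moved the same way over most classes, from 24.2% higher and 32.3% lower in 297 genes with 1 exon to 44.8% and 15.4% in 1061 genes with more than 20 and up to 40 exons, while of 168 genes with more exons 47.0% rose and 20.2% fell. Level went the other way: of 45 genes with a mean FPKM over 300, 22.2% rose and 57.8% fell. The parts of span, exon number and level in these shares were not separated. SMAD3, COL4A1, COL5A1, LTBP1, PREX1 and PCDH9 all span more than 100 kb, and RPS27, RPL35A and RPL26L1 span 1.40, 6.63 and 11.0 kb. These are examples: among the 9091 genes, with a median span of 34 kb, the 100 called higher had a median of 42.2 kb. The 32 called lower had a median of 16.3 kb.

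**Figure D4:**
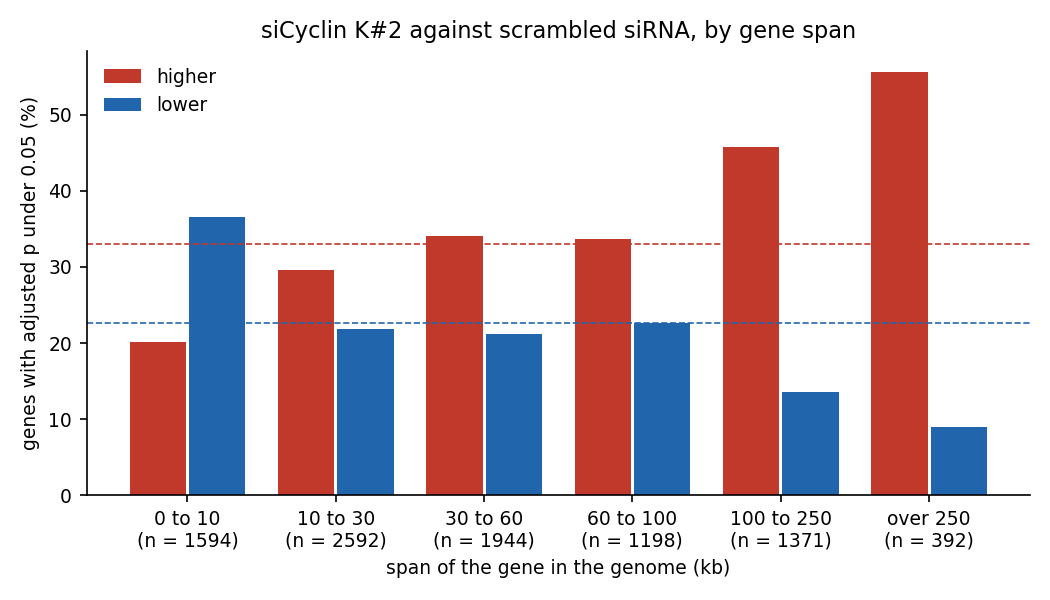
Share of genes (y axis, in percent, from 0) that rose or fell with an adjusted p under 0.05 with siCyclin K#2, by the span of the gene in GRCh38 (x axis, kb), for 9091 protein-coding genes averaging 1 FPKM or more. Dashed lines mark the shares over all of them, 33.0% and 22.6%, and the share that fell drops from 36.5% in the shortest class to 8.93% in the longest.

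The other siRNA, siCyclin K#1, lowered CCNK to 0.809 ± 0.0857 FPKM (SD, n = 3), and CCNK did not differ between the siRNAs beyond the spread (log2 difference -0.06 ± 0.10 SE, limma adjusted p = 0.73). The comparisons with scrambled siRNA share their 3 controls and are not independent of each other, so differences were read from a direct test between the siRNAs. That test called 322 genes (1.53%) at a fold change of 3, and 6191 genes (29.4%) had an adjusted p under 0.05. Of the 409 genes called with siCyclin K#2, 143 differed between the siRNAs by the adjusted p and 32 at the fold change of 3. By the adjusted p against scrambled siRNA, 5635 genes rose (26.8%) and 3800 fell (18.1%) with siCyclin K#1.

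Several groups stood differently with the 2 siRNAs. Mitosis genes, with 27 rises and 8 falls with siCyclin K#2, had 11 rises and 31 falls with siCyclin K#1, and 43 of the 57 differed between the siRNAs in the direct test. Replication genes had 8 rises and 29 falls with siCyclin K#1, and 33 of the 53 differed. Of the p53 targets 27 rose with siCyclin K#1 and 27 of the 37 differed. The hypoxia-inducible factor targets had 7 rises and 10 falls with siCyclin K#1, and 15 of the 24 differed. The cytosolic ribosomal proteins moved alike, with 70 falls with siCyclin K#2, 72 with siCyclin K#1 and medians of -0.48 for both. Of these 84 genes 35 differed in the direct test. Over all tested genes 29.4% differed, a share that includes low genes, which passed less often against scrambled siRNA.

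Single genes also differed. IGFBP1, another binding protein of insulin-like growth factors, was at 13, 12.5 and 11.4 FPKM with scrambled siRNA and at 45, 59.3 and 45.8 FPKM with siCyclin K#2, and at 7.59, 6.31 and 5.87 FPKM with siCyclin K#1 (log2 difference between the siRNAs -2.9, limma adjusted p = 1.3e-06). IL11 fell further with siCyclin K#1, to 3.08 ± 0.356 FPKM (SD, n = 3), as did the decapping enzyme gene DCP2 (log2 difference -1.38), and the cytokine CSF2, at 0.228, 0.589 and 0.691 FPKM with siCyclin K#2, was listed at 0 in all 3 siCyclin K#1 libraries. On the other side, MMP24, a membrane-bound metalloproteinase, rose to 8.69 ± 0.275 FPKM with siCyclin K#2 and to 33.1 ± 0.821 FPKM with siCyclin K#1 (SD, n = 3 each). HIST1H1C fell with siCyclin K#2 and was at 20.5, 17.5 and 20.04 FPKM with siCyclin K#1, where the lowest value was level with the highest scrambled one (log2 difference 2.14). PLSCR4, a scramblase, and a feature of ELF3, an epithelial transcription factor, also had higher levels with siCyclin K#1 (log2 differences 1.37 and 1.43). The pseudogene AC009299.1 stood higher with siCyclin K#1 and the noncoding gene AL161431.1 lower (1.5 and -1.99). RPL26L1 and PDCD1LG2 had log2 differences between the siRNAs of -0.01 and -0.09 (limma adjusted p = 0.96 and 0.73).

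**Figure D5:**
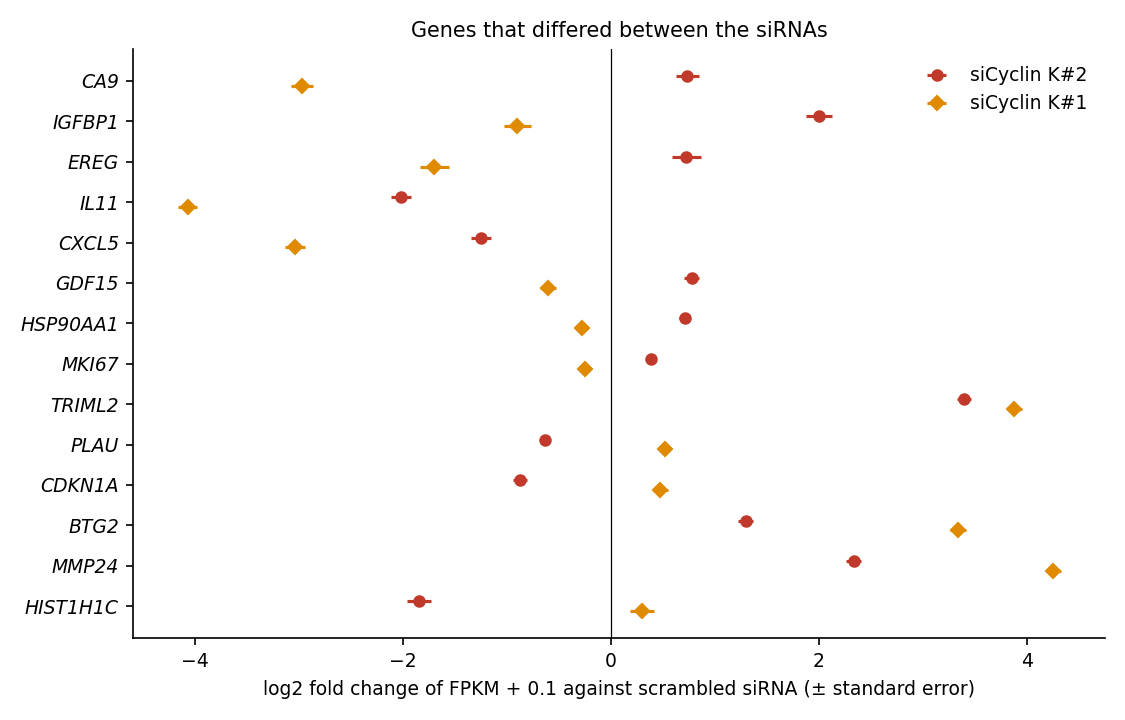
Log2 fold change of FPKM + 0.1 against scrambled siRNA (x axis, with the standard error from limma as bars) of 14 genes with siCyclin K#2 (red circles) and siCyclin K#1 (orange diamonds), which share the scrambled libraries. CA9, IGFBP1, EREG, GDF15, HSP90AA1 and MKI67 are above 0 with siCyclin K#2 and below 0 with siCyclin K#1, and PLAU and CDKN1A the reverse.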

How the data were processed

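RNA of 9 A549 libraries was sequenced, and the 6 libraries described here are the 3 with siCyclin K#2 and the 3 with scrambled siRNA. The authors used StringTie 1.3.3b, per their processing notes, and deposited FPKM values for each library with GRCh38 coordinates. The aligner and the annotation release are not given in the sources used here. Rows that carry the same reference gene were added up, rows without one were not used, and features that join several genes were kept as deposited. Depth was recovered from the steps between low FPKM values and exon lengths, and limits the precision of low genes. Genes that reached 0.1 FPKM in 3 or more libraries entered the test as log2(FPKM + 0.1), so fold changes of low genes are understated. The fit used limma 3.58.1 in R 4.3.3 (eBayes with trend) on all 9 libraries in 3 groups. Its p-values were adjusted by Benjamini and Hochberg over all genes. Calls used a fold change over 3 with p under 0.01, or an adjusted p under 0.05.

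Members and gene lists were chosen with earlier results of these data known. Genes were named by a rule: those the study followed; the 12 greatest rises and falls among called genes that averaged 1 FPKM or more and had groups without overlap; up to 5 members per list by absolute log2 fold change, with defining members whatever their values; the 5 greatest rises and falls in FPKM; and the 5 highest and lowest called genes between the siRNAs. Alternatives were other pseudocounts, filters, scalings, fits, thresholds, single libraries left out and a replicate block. No 2 libraries of the same group were alike within sampling noise. Promoter windows came from RefSeq on GRCh38.p14. Figures used Python 3.11.15 with matplotlib 3.10.9. Values of some genes that the rule names are not reported here.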

Additional observations from a re-analysis of the deposited data

Results flagged for a closer look

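In 18 of the 429 tested genes that the naming rule picked besides CCNK, the siRNAs moved the mRNA in opposite directions against the shared scrambled libraries, each with an adjusted p under 0.05 from limma in both comparisons and in the direct test. The log2 difference of siCyclin K#1 minus siCyclin K#2 was below 0 for 10 of them, which stood higher with siCyclin K#2: CA9 (-3.71), IGFBP1 (-2.90), EREG (-2.42), COL13A1 (-1.73), NORAD (-1.68), GDF15 (-1.38), CTNNAL1 (-1.22), HSP90AA1 (-0.99), NRP2 (-0.91) and MKI67 (-0.63). It was above 0 for the other 8: SLC43A2 (1.52), HIST1H2BK (1.37), CDKN1A (1.35), NDUFA4 (1.34), PTK7 (1.34), PLAU (1.15), VCL (0.99) and LAMC1 (0.66). The rule picks genes partly by size of change and by difference between the siRNAs, so 18 of 429 does not stand for all genes. Of all 21048 tested genes, 221 were higher with siCyclin K#2 and lower with siCyclin K#1 by the adjusted p, and 162 the reverse.

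Loci that StringTie assembled away from any reference gene entered no comparison above. Of 19541 such loci tested, 898 (4.60%) passed the fold change of 3 with siCyclin K#2, 323 higher and 575 lower. Among the 798 that averaged 1 FPKM or more, 17 rose past it and 47 fell past it (8.02%).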

How the results depend on the processing

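The 409 genes called with siCyclin K#2 became 117 with a pseudocount of 0.5 FPKM and 70 with a pseudocount of 1 FPKM, 186 with genes averaging 1 FPKM or more over the 9 libraries only (74.7% of them higher, against 55.7%), 1521 at a fold change of 2, and 1304 with the loci that have no reference gene (42.3% higher). The 322 genes called between the siRNAs became 75, 57, 113, 1129 and 830 in the same order. Of the 322, 63.4% were higher with siCyclin K#1, against 47.5% of the calls under quantile normalization. The share was 44% and 43.9% with pseudocounts of 0.5 and 1 FPKM, and 44.2% with genes averaging 1 FPKM or more only. The splits for siCyclin K#2 were 205 higher and 209 lower under median-ratio rescaling and 210 and 188 under quantile normalization, and by the adjusted p 3685 and 3688, and 3676 and 3653. Under quantile normalization MT-CO1 reversed to 0.14, and MT-ND1, MT-ND2, MT-ND3 and GAPDH moved to 0.000, 0.044, 0.038 and 0.000. Leaving out 1 library at a time gave 422 to 455 calls, of which 337 to 357 were among the 409, 6472 to 6576 genes by the adjusted p and 309 to 357 calls between the siRNAs. The log2 fold change of CCNK lay between -2.97 and -2.89 in these fits. Of 397 named genes with an adjusted p under 0.05, 22 missed it in at least 1 such fit, CDK13 in 4 of 6.

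Equally numbered libraries were not treated as pairs in the main fit. Their deviations had correlations of 0.04, 0.02 and 0.00 over 11243 genes, and those of differently numbered libraries lay between -0.03 and 0.02. Such values show no pairing, but they cannot exclude that equally numbered libraries were prepared together. The fit with replicate block called 412 genes, 6947 by the adjusted p and 314 between the siRNAs, and CCNK kept -2.92. Only 3 libraries a group, a single cell line and a single time were measured, and intervals cover the spread between these libraries alone.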
